A study of Mus musculus with 10 samples.

Results

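Imprinted genes are genes expressed mainly from the allele inherited from one parent. A set of 35 of them, chosen by symbol from a working list and with Cdkn1c kept apart, was followed in the pituitary intermediate lobe (IL) of p27-/- mice, with and without the loss of a copy of Sox2. Of the 35, 32 were matched to a row of the deposited table of 29527 genes, and 28 of these were high enough to be tested. Rian, Mirg and Peg13 were matched to no row and are not analysed here. Imprinting is set up in the germ line by DNA methylation of control regions rich in CpG dinucleotides, and each control region usually governs a cluster in which some genes are read from the paternal and others from the maternal copy. Many paternally expressed genes promote growth, and many maternally expressed genes restrain it. In the pituitary, the maternally expressed noncoding RNA gene Meg3 and the paternally expressed zinc finger gene Plagl1 are known for their loss in human adenomas.

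The IL is a thin lobe whose endocrine cells, the melanotrophs, make POMC and process it into melanocyte stimulating hormone. RNA of dissected IL was sequenced in bulk from 10 mice aged 2 to 3 months, with 1 library per mouse: 4 wild-type (WT), 3 p27-/- and 3 p27-/-;Sox2+/-, the compound mutants. Both mutant genotypes carry a constitutive null allele of Cdkn1b, the gene of the cyclin-dependent kinase inhibitor P27, on both chromosomes, and p27-/-;Sox2+/- mice also lack a functional copy of Sox2. These alleles act in every cell of the mouse, the lines were kept on a mixed background, and each genotype included males and females. No group with the Sox2 allele alone was analysed here, so an effect of that allele was measured only on the p27-/- background. The design asks which genes differ from WT in p27-/- IL, and whether they still differ once Sox2 dosage is reduced.

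The values are log2 expression values as deposited, in which genes with low values spread less over the samples than genes with higher values. Their transformation is not given. The narrow spread at low values is a sign of compression there, and how far it reaches into the tested genes is not known. Differences and folds given here are those of the deposited values and may be smaller than those of the counts. Among genes under the minimum level for testing, the median range over the 10 samples was 0.108 log2 units, against 0.533 for tested genes. The values are not scaled to gene length, so levels are compared between samples and not between genes. They are totals over both alleles, so the share of each parental copy was not measured. The targeted gene Cdkn1b (ENSMUSG00000003031) had log2 values of 8.39 to 8.85 in WT, 8.04 to 8.27 in p27-/- and 7.73 to 8.10 in p27-/-;Sox2+/- samples. It was therefore lower in both mutants without overlap with WT, by a log2 difference of -0.43 in p27-/- samples (limma, adjusted p = 0.047) and of -0.72 in the compound mutants (adjusted p = 0.00854), but reads of the gene remained in all of them. The melanotroph gene Pomc averaged 18.46 in WT, 18.77 in p27-/- and 18.43 in p27-/-;Sox2+/- samples. Markers of cell types differed between samples. In p27-/- compared with WT, 2 of 7 anterior lobe, 2 of 5 fibroblast and 1 of 4 endothelial markers were lower at an adjusted p under 0.05 (limma). Of 4 melanotroph markers 1, Pcsk2, was higher, and no posterior lobe, stem cell or macrophage marker passed. Of all tested genes, 7.78% passed in either direction. The mean of 7 anterior lobe genes, centred over the samples, was highest at 1.66 in WT replicate 2 and next at 0.47 in p27-/- replicate 1, and the mean of 7 posterior lobe genes ranged from -0.65 to 0.91 in WT, from -0.39 to -0.04 in p27-/- and from -0.74 to 0.60 in p27-/-;Sox2+/- samples. The mean of 4 proliferation markers was -0.89 to -0.30 in WT, 0.58 to 1.12 in p27-/- and -0.20 to 0.31 in p27-/-;Sox2+/- samples, and these ranges did not overlap. As the tissue was measured in bulk, fewer cells of a type and less RNA per cell cannot be told apart.

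The stretches of DNA that follow lie at the starts of the genes on which the results turn, the Peg3 cluster and the Igf2r locus, with CpG dinucleotides in capitals. They are RefSeq sequences of GRCm38.p6, 5′ to 3′ on the strand of the gene, or on the plus strand for the gap between Peg3 and Usp29. That gap is chr7:6730463-6730558, which separates the annotated ends of these divergent genes. The stretch before Zim1 is chr7:6696541-6696682 on the minus strand, that before Igf2r is chr17:12769707-12769956 on the minus strand, and that before Airn is chr17:12741061-12741310 on the plus strand.
Peg3 to Usp29: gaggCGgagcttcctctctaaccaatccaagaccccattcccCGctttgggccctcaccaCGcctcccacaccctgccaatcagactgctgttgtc
Zim1: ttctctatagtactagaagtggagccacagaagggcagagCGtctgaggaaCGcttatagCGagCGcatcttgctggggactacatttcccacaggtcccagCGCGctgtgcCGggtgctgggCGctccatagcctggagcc
Igf2r: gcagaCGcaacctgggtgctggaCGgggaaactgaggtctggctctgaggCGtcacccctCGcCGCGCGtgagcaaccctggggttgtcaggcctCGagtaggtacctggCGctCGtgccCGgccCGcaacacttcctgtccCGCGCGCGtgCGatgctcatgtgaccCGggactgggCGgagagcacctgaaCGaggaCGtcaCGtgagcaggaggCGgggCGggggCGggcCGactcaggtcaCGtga
Airn: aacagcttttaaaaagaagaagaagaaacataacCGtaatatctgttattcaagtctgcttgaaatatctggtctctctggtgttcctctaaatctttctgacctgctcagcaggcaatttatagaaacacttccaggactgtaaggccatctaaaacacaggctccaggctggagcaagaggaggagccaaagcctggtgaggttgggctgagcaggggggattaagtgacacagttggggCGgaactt
Igf2r had 27 CpGs in 250 bases, or 10.8 per 100 bases, and Airn had 2 in 250 bases. The Zim1 stretch had 8 CpGs in 142 bases, and the gap between Peg3 and Usp29 had 3 in 96 bases. Among 32851 annotated promoter windows of 300 bases, the median was 2.33 CpGs per 100 bases, against 4.67 in the 43 windows found for 28 of the listed genes. The letters TGCCGC, which the imprint-protecting zinc finger protein ZFP57 is known to bind when methylated and which themselves hold a CpG, were searched on both strands. They were in none of the printed stretches, in 11 of the 43 windows (25.6%) and in 11.6% of all windows. The printed stretches are shorter than these windows of 300 bases. The whole window of Zim1, of which the printed stretch is a part, held 20 CpGs and 1 match of the letters. The windows of Peg3 and Usp29, which span the printed gap, held 13 and 17 CpGs and no match. A match of letters is a description and not a binding site, and methylation was not measured. The stretches were placed by annotated gene starts, and imprinting control regions were not read as such.

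In p27-/- compared with WT IL, 8 of the 28 tested imprinted genes had an adjusted p under 0.05 (limma, adjusted over 17268 tested genes), or 28.6%, against 7.78% of all tested genes. The count depended on single mice and settings: it was 1 without p27-/- replicate 2, 2 without p27-/- replicate 3 or WT replicate 4, 3 without WT replicate 3, 4 without p27-/- replicate 1 and 3 with no filter on low values, but 10 without WT replicate 1 and 11 with array weights. Zim1, Usp29, Gnas, Ndn and Inpp5f were higher, where 3.16% of all genes were higher, and Airn, Grb10 and Igf2r were lower, where 4.62% of all genes were lower. At an unadjusted p under 0.05 there were 16 of the 28, or 57.1%, against 24.1% of all genes. The samples of both genotypes did not overlap for 10 of the 28 (35.7%), 5 higher and 5 lower, against 20.6% of all genes. The median log2 difference was -0.05 over the 28 genes and 0.01 over all tested genes. The 8 genes were spread over both parental classes: 3 of the 17 tested paternally expressed genes, 2 of the 6 maternally expressed genes and 3 of the 5 genes whose imprinting depends on isoform or tissue. The members were chosen with earlier results of these data known and were not matched to other genes by level. The percentages therefore describe these lists and do not test them.

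**Figure D1:**
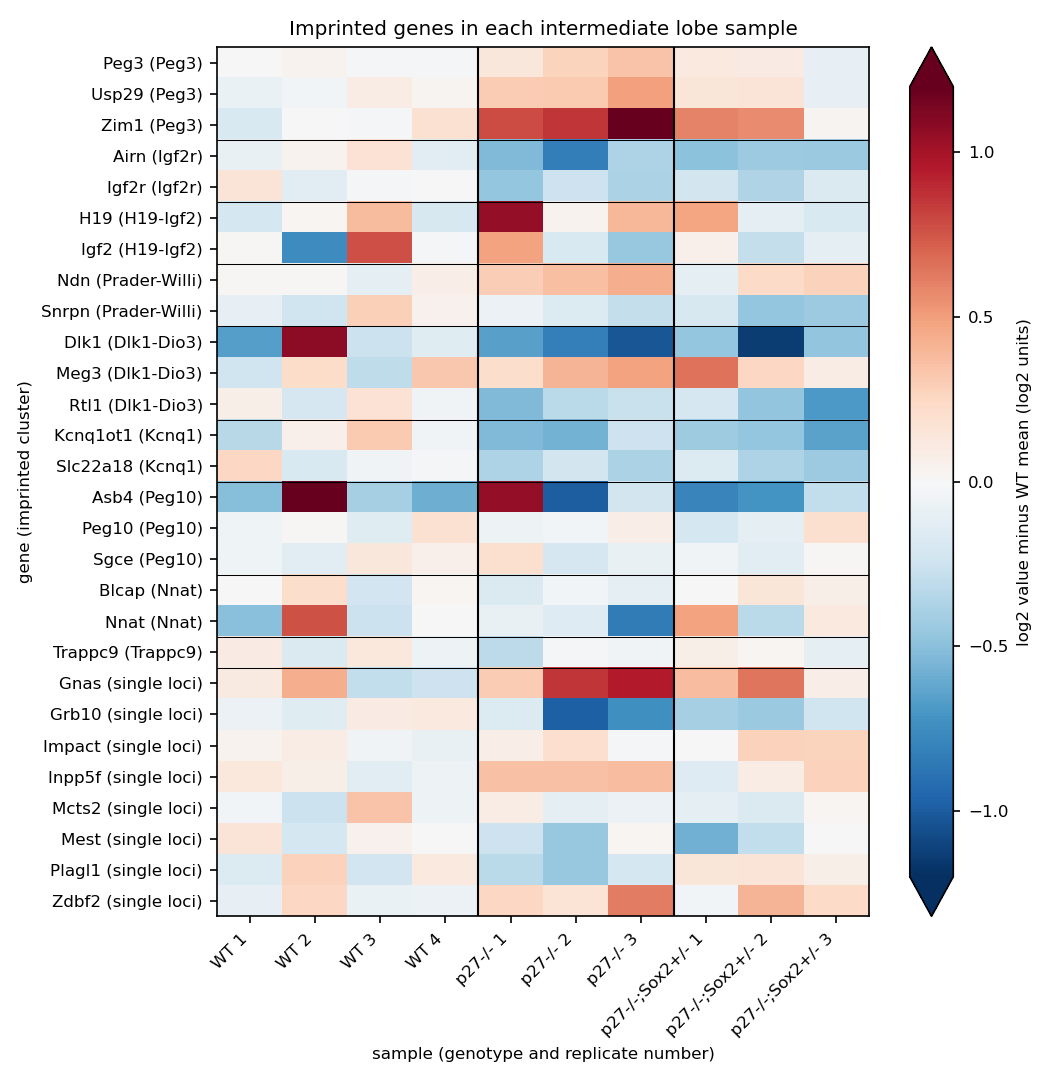
Log2 values of the 28 tested imprinted genes (rows, by cluster) in each of the 10 samples (columns, by genotype), shown as the difference from the WT mean of the gene in log2 units, with colours clipped at the ends of the scale. The Peg3 cluster was above its WT mean in all p27-/- samples, Airn and Igf2r were below theirs in all mutant samples, and Dlk1 and Asb4 were highest in WT replicate 2.

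The Peg3 cluster on chromosome 7 held the largest difference among the called genes. Zim1 (ENSMUSG00000002266, 6674444 to 6696540), a maternally expressed zinc finger gene, had log2 values of 9.11, 9.30, 9.28 and 9.48 in WT, 10.07, 10.15 and 10.62 in p27-/-, and 9.89, 9.86 and 9.33 in p27-/-;Sox2+/- samples. All p27-/- samples were above all samples of the other genotypes, and p27-/-;Sox2+/- replicate 3 lay within the WT range while the other two compound mutants lay above it. On the log2 scale, as for all differences here, Zim1 rose by 0.99 in p27-/- compared with WT, or 1.99-fold (standard error 0.153, adjusted p = 0.00259). It passed the threshold under all 21 alternative settings, with an adjusted p of 0.00141 to 0.0178 when a sample was left out and of 0.00186 to 0.0169 otherwise. In compound mutants the difference from WT was 0.40 (95% interval 0.07 to 0.73, adjusted p = 0.182), and between the mutants it was -0.59 (95% interval -0.94 to -0.24, adjusted p = 0.285), so neither of these passed.

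Usp29 (ENSMUSG00000051527, 6730559 to 6967220), a paternally expressed ubiquitin peptidase gene, had values of 11.09, 11.13, 11.26 and 11.20 in WT, 11.47, 11.48 and 11.66 in p27-/-, and 11.31, 11.33 and 11.07 in p27-/-;Sox2+/- samples. The p27-/- samples again stood above both other genotypes without overlap, and the compound mutants overlapped WT. Usp29 rose by 0.37 in p27-/- (standard error 0.090, adjusted p = 0.027), a call kept in 13 of the 21 alternatives and lost without WT replicate 4 or any of the p27-/- replicates (adjusted p of 0.0202 to 0.134 with a sample left out). The differences were 0.07 from WT in compound mutants (adjusted p = 0.744) and -0.30 between the mutants (adjusted p = 0.422). Peg3 (ENSMUSG00000002265, 6703892 to 6730462), which encodes a paternally expressed zinc finger protein involved in growth, starts 96 bases from Usp29 on the opposite strand. Its values were 14.96 to 15.03 in WT, 15.12, 15.26 and 15.33 in p27-/-, and 15.11, 15.09 and 14.89 in p27-/-;Sox2+/- samples. The difference of 0.25 from WT in p27-/- did not pass the threshold (adjusted p = 0.161), although no p27-/- sample overlapped WT. In all 3 genes of the cluster, p27-/- replicate 3 was the highest of the 10 samples and p27-/-;Sox2+/- replicate 3 was the lowest of the 6 mutants. Zim1 and Peg3 lie 7351 bases apart and do not overlap.

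**Figure D2:**
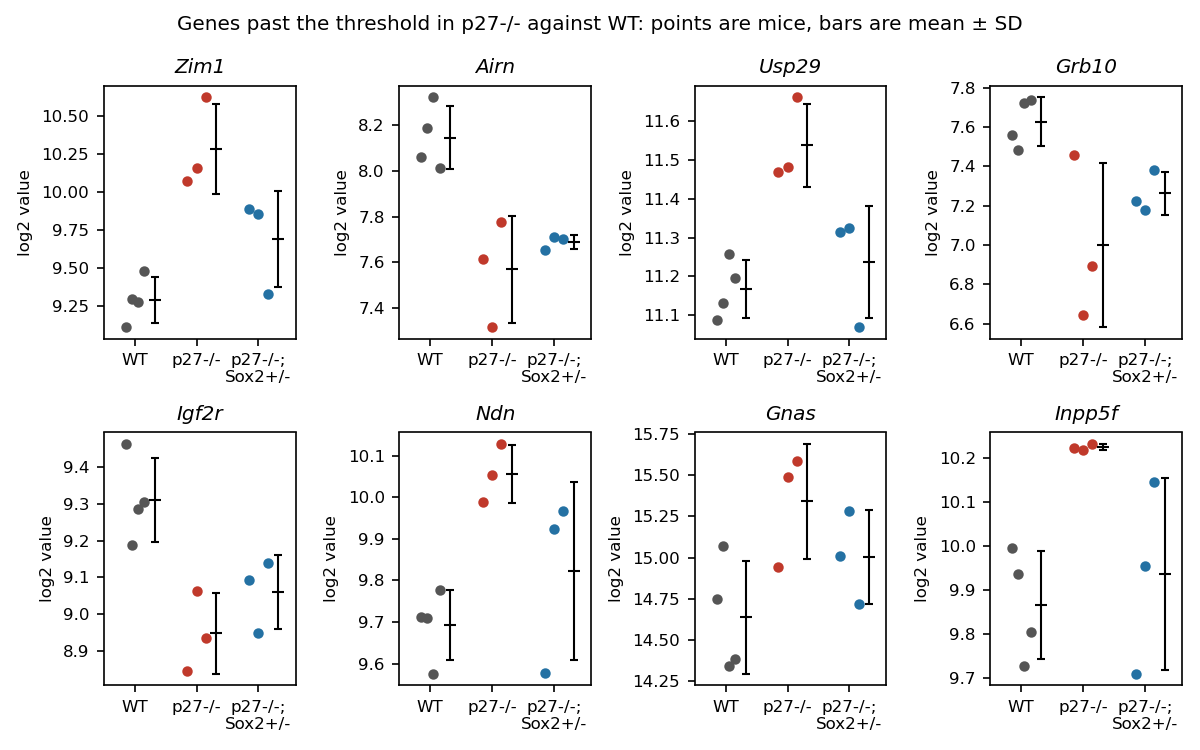
Log2 values (vertical axes, not starting at 0) of the 8 imprinted genes past the threshold in p27-/- compared with WT, with 1 point per mouse and the mean ± SD of each genotype as a bar. The genotypes separated without overlap for 7 of these genes in p27-/- compared with WT, and Gnas was the exception.

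At the Igf2r locus on chromosome 17 both genes fell. Airn (ENSMUSG00000078247, 12741311 to 12859884) is a paternally expressed noncoding RNA gene whose transcription silences Igf2r on the paternal chromosome in most tissues. It had values of 8.06, 8.19, 8.32 and 8.01 in WT, 7.61, 7.32 and 7.78 in p27-/-, and 7.65, 7.71 and 7.70 in p27-/-;Sox2+/- samples. No mutant sample reached the lowest WT sample. Airn fell by 0.58 in p27-/- (standard error 0.119, adjusted p = 0.0119), and the call was kept in 19 of 21 alternatives. It was lost without p27-/- replicate 2 (adjusted p = 0.0618) and with the posterior lobe marker mean as a covariate (adjusted p = 0.0527). For the compound mutants the difference from WT was -0.46 (95% interval -0.71 to -0.20, adjusted p = 0.0572), just short of the threshold, and between the mutants it was 0.12 (95% interval -0.15 to 0.39, adjusted p = 0.986).

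Igf2r (ENSMUSG00000023830, 12682406 to 12769706) encodes the maternally expressed receptor that carries IGF2 to the lysosome for degradation. Its values were 9.46, 9.19, 9.29 and 9.31 in WT, 8.85, 9.06 and 8.93 in p27-/-, and 9.09, 8.95 and 9.14 in p27-/-;Sox2+/- samples. As for Airn, every mutant sample lay below every WT sample. Igf2r fell by 0.36 in p27-/- (standard error 0.0942, adjusted p = 0.034), a call kept in 12 of 21 alternatives. It was lost without WT replicate 3 or 4 or any of the p27-/- replicates (adjusted p of 0.0247 to 0.133 with a sample left out). The difference in the compound mutants was -0.25 (adjusted p = 0.173). The spans of the 2 genes overlap over 28396 bases on opposite strands, and the authors counted reads on the transcriptome without strand. Reads of sequence held by transcripts of both genes therefore cannot be told apart by strand. How many reads this concerns was not measured, so the values of the pair may not be independent.

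Gnas (ENSMUSG00000027523, chromosome 2, 174284320 to 174346744) encodes the stimulatory G protein alpha subunit together with further transcripts, some maternal and some paternal, from separate promoters. Its values were 14.75, 15.07, 14.34 and 14.39 in WT, 14.94, 15.49 and 15.59 in p27-/-, and 15.01, 15.28 and 14.72 in p27-/-;Sox2+/- samples. WT replicate 2 was above p27-/- replicate 1, so the genotypes overlapped. Gnas rose by 0.70 in p27-/- (standard error 0.200, adjusted p = 0.0467), a call kept in 7 of 21 alternatives. It was lost without WT replicate 3 or 4, p27-/- replicate 2 or 3, or p27-/-;Sox2+/- replicate 1 or 2 (adjusted p of 0.0158 to 0.193 with a sample left out). The difference in the compound mutants was 0.37 (adjusted p = 0.361). The transcripts are summed in the gene total, so it is not known which of them rose.

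Grb10 (ENSMUSG00000020176, chromosome 11, 11930499 to 12037428) encodes an adaptor that dampens insulin and IGF1 receptor signalling, and it is read from the maternal copy in most tissues and from the paternal copy in neurons. Values were 7.56, 7.49, 7.72 and 7.74 in WT, 7.46, 6.65 and 6.90 in p27-/-, and 7.23, 7.18 and 7.38 in p27-/-;Sox2+/- samples. All mutants lay below WT, with p27-/- replicate 1 within 0.1 log2 units of the lowest WT sample. Grb10 fell by 0.63 in p27-/- (standard error 0.160, adjusted p = 0.0327), a call kept in 12 of 21 alternatives. It was lost without WT replicate 3 or 4 or p27-/- replicate 3, and without p27-/- replicate 2 the difference was -0.45 (adjusted p = 0.140, the highest with a sample left out). The difference in the compound mutants was -0.36 (adjusted p = 0.249).

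Ndn (ENSMUSG00000033585, chromosome 7, 62348277 to 62349928), a paternally expressed gene of the Prader-Willi cluster, encodes necdin, a growth suppressor of postmitotic neurons. It was at 9.71, 9.71, 9.58 and 9.78 in WT, 9.99, 10.05 and 10.13 in p27-/-, and 9.58, 9.92 and 9.97 in p27-/-;Sox2+/- samples. The p27-/- samples were the highest of all, and the compound mutants were split, with replicate 1 at the level of the lowest WT sample. Ndn rose by 0.36 in p27-/- (standard error 0.100, adjusted p = 0.0426), a call kept in 8 of 21 alternatives and lost without WT replicate 2, 3 or 4, any of the p27-/- replicates or p27-/-;Sox2+/- replicate 2 (adjusted p of 0.0226 to 0.164 with a sample left out). Snrpn, a splicing protein gene of the same cluster, lay between 7.31 and 8.06 over all samples and did not pass, with a difference of -0.17 in p27-/- (adjusted p = 0.443) and of -0.36 in the compound mutants (adjusted p = 0.155). Magel2 and Mkrn3, also of this cluster, were below the minimum in all samples, at 1.36 to 1.52 and 0.76 to 0.98 on the log2 scale.

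Inpp5f (ENSMUSG00000042105, chromosome 7, 128611181 to 128696436) encodes a phosphoinositide phosphatase, and a short isoform of it is read from the paternal copy in brain. Values were 9.996, 9.94, 9.73 and 9.80 in WT, 10.22, 10.22 and 10.23 in p27-/-, and 9.71, 9.96 and 10.15 in p27-/-;Sox2+/- samples. The 3 p27-/- samples were nearly equal and above all others, and the compound mutants spanned a range wider than that of WT. Inpp5f rose by 0.36 in p27-/- (standard error 0.104, adjusted p = 0.0498), at the edge of the threshold. The call was kept in 8 of 21 alternatives and lost when the same samples as for Ndn were left out (adjusted p of 0.0307 to 0.151 with a sample left out). The isoforms are summed, so the imprinted one was not measured by itself.

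**Figure D3:**
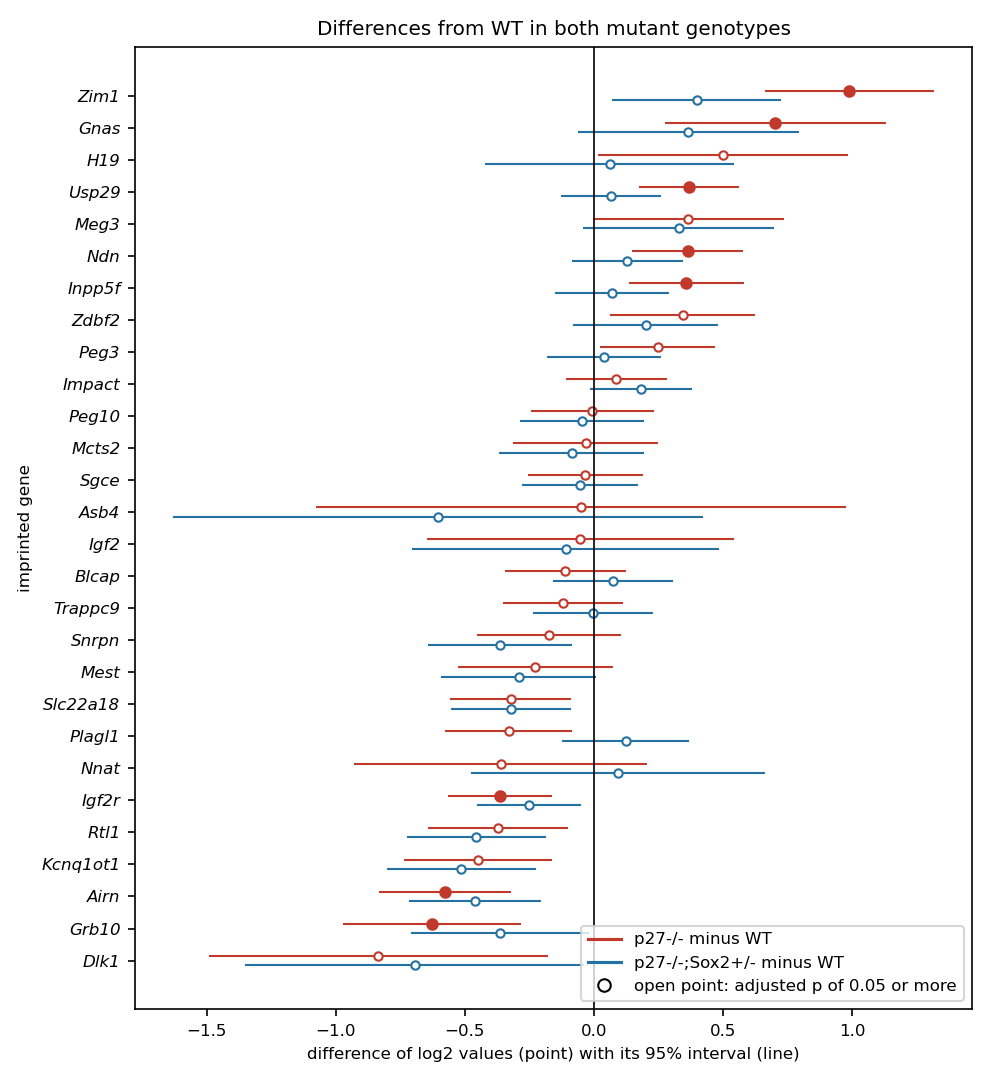
Differences from WT of the 28 tested imprinted genes in p27-/- (red) and p27-/-;Sox2+/- (blue) samples in log2 units, with 95% intervals as lines and filled points where the adjusted p was under 0.05. Zim1 stood highest at 0.99 in p27-/- and 0.40 in p27-/-;Sox2+/-, and no blue point is filled.

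When p27-/-;Sox2+/- samples were set against WT, 0 of the 28 genes passed the threshold (limma), where 2.71% of all tested genes did, and 9 (32.1%) had an unadjusted p under 0.05, against 17.8% of all genes. For 5 of the 28 (17.9%) the samples did not overlap, all 5 lower in the mutants, namely Rtl1, Grb10, Igf2r, Airn and Kcnq1ot1, against 15.0% of all genes in either direction. The median difference was -0.02 over the 28 genes and 0.01 over all tested genes. Between p27-/-;Sox2+/- and p27-/- samples, 0 of the 28 passed (limma), where 0.145% of all genes did, and 5 (17.9%) had an unadjusted p under 0.05, against 6.65% of all genes. Samples of both mutants did not overlap for 7 genes (25.0%), against 15.3% of all genes: Peg3, Zim1, Usp29, Ndn and Inpp5f were lower and Plagl1 and Blcap higher in p27-/-;Sox2+/-. The p27-/- and p27-/-;Sox2+/- comparisons with WT share the WT samples, and a gene that passed in only one of them is not thereby shown to differ between the mutants. None of the 8 genes called in p27-/- differed between the mutants at the threshold.

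The genes with the smallest p in the compound mutants against WT were Airn, Kcnq1ot1 and Rtl1. Kcnq1ot1 (ENSMUSG00000101609, chromosome 7, 143213111 to 143296547) is a paternally expressed noncoding RNA gene that silences its neighbours on the same chromosome. It had values of 12.65, 13.04, 13.30 and 12.94 in WT, 12.45, 12.41 and 12.73 in p27-/-, and 12.55, 12.51 and 12.34 in p27-/-;Sox2+/- samples. Of the mutants, p27-/- replicate 3 alone exceeded the lowest WT sample. With a standard error of 0.134, the difference from WT was -0.45 in p27-/- samples (adjusted p = 0.0554) and -0.51 in the compound mutants (adjusted p = 0.0583), and both fell under the threshold without WT replicate 1, at adjusted p = 0.00996 and 0.0107. Kcnq1ot1 lies wholly within Kcnq1 on the opposite strand, so that intronic reads of Kcnq1 could not be kept apart from it. In the same cluster, the maternally expressed transporter gene Slc22a18 had values of 3.89 to 4.33 in WT, 3.70 to 3.86 in p27-/- and 3.65 to 3.92 in p27-/-;Sox2+/- samples, with a difference of -0.32 in both comparisons with WT (adjusted p = 0.0869 and 0.135). The placental genes Phlda2 and Ascl2 were below the minimum, at -1.60 to -1.57 and 0.39 to 0.48.

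Rtl1 (ENSMUSG00000085925, chromosome 12, 109564900 to 109604418), a paternally expressed gene derived from a retrotransposon, had values of 8.84, 8.57, 8.94 and 8.72 in WT, 8.24, 8.44 and 8.50 in p27-/-, and 8.57, 8.30 and 8.08 in p27-/-;Sox2+/- samples. All mutants were below the WT samples, the nearest by less than 0.01 log2 units. With a standard error of 0.126, the difference was -0.37 in p27-/- samples (adjusted p = 0.0874) and -0.45 in the compound mutants (adjusted p = 0.0729). In the same Dlk1-Dio3 cluster, Meg3 was at 14.60, 15.06, 14.53 and 15.16 in WT, 15.05, 15.25 and 15.32 in p27-/-, and 15.49, 15.08 and 14.92 in p27-/-;Sox2+/- samples. Both mutants overlapped WT, and the differences of 0.37 (95% interval -0.004 to 0.74, adjusted p = 0.213) and 0.33 (95% interval -0.04 to 0.70, adjusted p = 0.343) did not pass. The spans of Rtl1 and Meg3 overlap over 6830 bases on opposite strands, and reads of transcript sequence shared there cannot be told apart by strand either.

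Plagl1 (ENSMUSG00000019817, chromosome 10, 13090832 to 13131694), a zinc finger gene that restrains cell growth, had the smallest p between the mutants. It had values of 11.22, 11.67, 11.17 and 11.51 in WT, 11.06, 10.94 and 11.19 in p27-/-, and 11.54, 11.55 and 11.46 in p27-/-;Sox2+/- samples. Every compound mutant was above every p27-/- sample, while WT overlapped both. The difference between p27-/-;Sox2+/- and p27-/- was 0.45 (standard error 0.123, 95% interval 0.19 to 0.72, adjusted p = 0.275), and the differences from WT were -0.33 for p27-/- (adjusted p = 0.0969) and 0.12 for the compound mutants (adjusted p = 0.617). With array weights, which weight samples by how well they fit, the difference between the mutants had an adjusted p of 0.0179.

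Dlk1, Asb4 and Nnat spread widely among the WT samples, with standard deviations of 0.75, 0.996 and 0.55 log2 units. A wide spread was not particular to these genes. It was 0.62 for Igf2, 0.34 for the called gene Gnas and 0.32 for Meg3. Dlk1, a paternally expressed transmembrane protein related to Notch ligands, was at 6.97, 8.71, 7.38 and 7.49 in WT, 6.98, 6.82 and 6.61 in p27-/-, and 7.17, 6.50 and 7.16 in p27-/-;Sox2+/- samples. Asb4, a maternally expressed ankyrin repeat protein, was at 6.12, 8.12, 6.24 and 6.04 in WT, 7.69, 5.65 and 6.41 in p27-/-, and 5.84, 5.92 and 6.33 in p27-/-;Sox2+/- samples. Nnat, a paternally expressed proteolipid of the endoplasmic reticulum, was at 10.22, 11.49, 10.47 and 10.73 in WT, 10.64, 10.57 and 9.89 in p27-/-, and 11.21, 10.41 and 10.85 in p27-/-;Sox2+/- samples. WT replicate 2, which had the highest anterior lobe marker mean, was the highest sample for all 3 genes, and also for Plagl1 and Blcap. The sample with the next highest mean, p27-/- replicate 1, was the next highest for Asb4 but not for Dlk1 or Nnat. For Dlk1 the next highest was WT replicate 4, with a marker mean of 0.003. For Nnat it was p27-/-;Sox2+/- replicate 1, with a marker mean of -0.41. The part of anterior lobe tissue in these values was not tested. Between p27-/- and WT samples the difference of Dlk1 was -0.83 (95% interval -1.49 to -0.18, adjusted p = 0.113), and it was -0.48 without WT replicate 2 (adjusted p = 0.135) and -0.42 with the anterior lobe marker mean as a covariate (adjusted p = 0.199). The Dlk1 difference passed under 2 of the alternatives, at -0.98 where samples were weighted by their spread (array weights, adjusted p = 0.0440) and -1.06 without WT replicate 1 (adjusted p = 0.0346), and it was -1.13 with the posterior lobe marker mean as a covariate (adjusted p = 0.0766). For Asb4 it was -0.05 (adjusted p = 0.963), and 0.45 without that sample (adjusted p = 0.464).

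**Figure D4:**
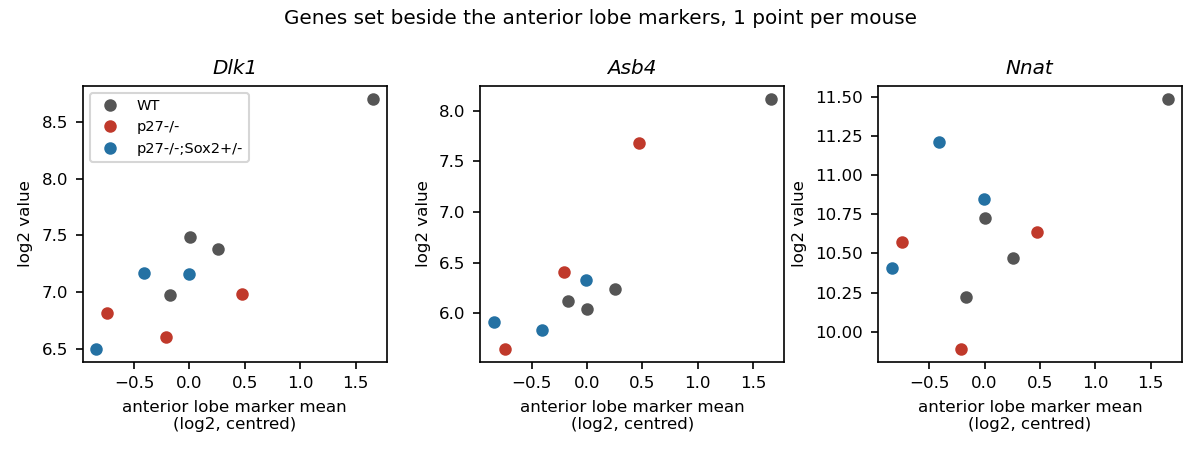
Log2 values of Dlk1, Asb4 and Nnat (vertical axes) against the mean of 7 anterior lobe markers, centred over the 10 samples (horizontal axes), with 1 point per mouse coloured by genotype. WT replicate 2, at a marker mean of 1.66, was the highest sample for each gene, with 8.71 for Dlk1, 8.12 for Asb4 and 11.49 for Nnat. The next highest marker mean, 0.47 in p27-/- replicate 1, went with the next highest value for Asb4 only.

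The remaining tested members did not pass in any comparison. Igf2, the paternally expressed growth factor bound by Igf2r, was at 7.87 to 9.40 in WT, 8.18 to 9.11 in p27-/- and 8.35 to 8.69 in p27-/-;Sox2+/- samples, with a difference of -0.05 in p27-/- (95% interval -0.65 to 0.54, adjusted p = 0.932). Its maternally expressed neighbour H19, a noncoding RNA gene, was at 4.68 to 5.27 in WT, 5.95, 4.94 and 5.29 in p27-/-, and 4.71 to 5.37 in p27-/-;Sox2+/- samples, with a difference of 0.50 in p27-/- (adjusted p = 0.193). Zdbf2, a zinc finger gene, was at 11.49 to 11.84 in WT, 11.75 to 12.20 in p27-/- and 11.55 to 11.99 in p27-/-;Sox2+/- samples, with a difference of 0.34 in p27-/- (adjusted p = 0.126).

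The lowest and highest of the 10 samples were 11.64 and 12.38 for the hydrolase gene Mest, 10.97 and 11.34 for Impact, an inhibitor of the translation kinase GCN2, and 7.67 and 8.10 for Blcap, within which Nnat lies. They were 8.61 and 9.02 for Peg10, a gene derived from a retrotransposon, 9.16 and 9.55 for its neighbour Sgce, which encodes a sarcoglycan, 7.42 and 8.02 for the retrocopy Mcts2, and 8.13 and 8.57 for the trafficking gene Trappc9. The differences of these 7 genes from WT lay between -0.29, for Mest in p27-/-;Sox2+/-, and 0.18, for Impact in the same comparison. Reads of Mcts2 may be shared with its parent gene Mcts1 and with H13, within which it lies, and those of Nnat with Blcap.

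Of 7 posterior lobe markers 0 passed in p27-/- compared with WT (limma), where 7.78% of all genes did. All 7 were lower in p27-/- samples, with a median difference of -0.72. An unadjusted p under 0.05 was found for 3 (42.9%), against 24.1% of all genes. Their mean ranged from -0.65 to 0.91 in WT and from -0.39 to -0.04 in p27-/- samples. Only WT replicate 2, at -0.65, lay below the p27-/- samples. The other WT samples, at 0.65 to 0.91, lay above all of them. With this mean as a covariate, Zim1 alone of the 28 passed in p27-/- compared with WT, at a difference of 0.91 (adjusted p = 0.0169), and the differences of the other 7 called genes kept their signs, such as -0.57 for Airn and 0.41 for Ndn (adjusted p = 0.0888). The difference of Gnas became 0.47 (adjusted p = 0.227). With the anterior lobe marker mean as a covariate, 5 of the 28 passed, namely Zim1, Airn, Igf2r, Rtl1 and Slc22a18. The part of the proliferation markers, all 4 of which passed as higher in p27-/- than in WT, was not tested.

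**Figure D5:**
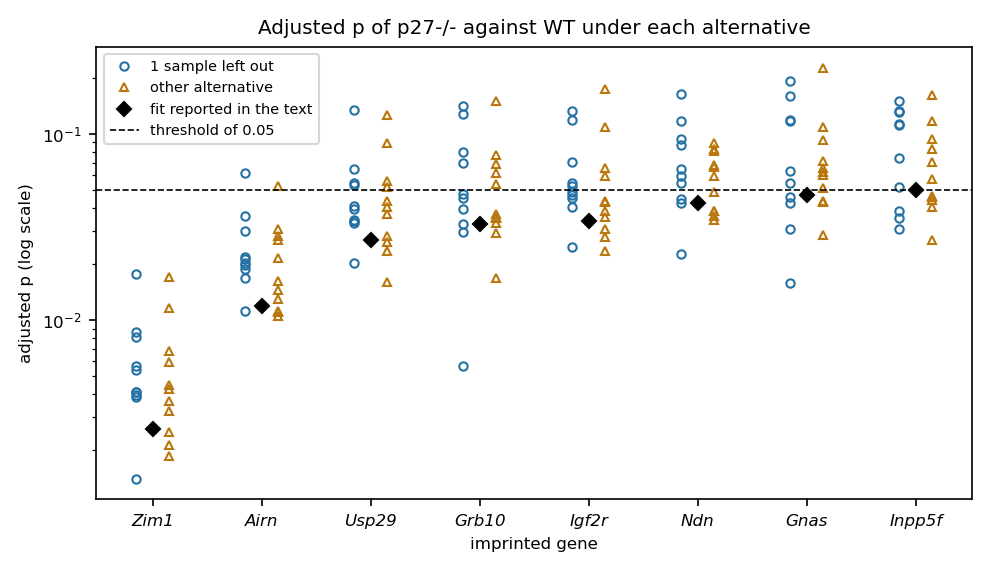
Adjusted p in p27-/- compared with WT (vertical axis, log scale) of the 8 called genes (horizontal axis) under each of 21 alternatives, with circles for the 10 that leave out a sample, triangles for the 11 others and a diamond for the value in the text. All values of Zim1 lay below the threshold of 0.05 (dashed line), those of Airn lay below it in 19 of 21 alternatives, and those of the other 6 genes fell on both sides.

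A wider list of 43 genes outside the 35, known as imprinted in at least some tissue, had 31 tested members. Whether they are imprinted in the IL was not measured. This list and those that follow were also chosen with earlier results of these data known, so their percentages are descriptions. In p27-/- compared with WT, 6 of these passed (19.4%, against 7.78% of all genes): Nap1l5 and Ddc rose, and Pon2, Rasgrf1, Kcnk9 and Zrsr1 fell. Pon2, which encodes a lactonase of the paraoxonase family, fell by 1.05 (adjusted p = 0.000732), the exchange factor gene Rasgrf1 fell by 0.86 (adjusted p = 0.0111), and Nap1l5 rose by 0.60 (adjusted p = 0.0127). In the compound mutants against WT, 2 passed, read against 2.71% of all genes, as Pon2 fell by 1.24 (adjusted p = 0.000484) and the transcription factor gene Klf14 fell by 0.67 (adjusted p = 0.0416), while Rasgrf1 had a difference of -0.65 (adjusted p = 0.0638). None of the 31 passed between the mutants (limma), where 0.145% of all genes did, and 3 had an unadjusted p under 0.05 (9.7%, against 6.65% of all genes).

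Of 19 genes that establish, keep or remove imprints, 16 were tested. Of these, 2 rose in p27-/- compared with WT, which was 12.5%, where 3.16% of all genes were higher and 7.78% passed in either direction. Ezh2, the histone methyltransferase of the Polycomb complex, rose by 0.53 (adjusted p = 0.0274), the insulator protein gene Ctcf rose by 0.27 (adjusted p = 0.0466), and the maintenance DNA methyltransferase gene Dnmt1 had a difference of 0.34 that did not pass (adjusted p = 0.0517). Against WT, 0 passed in the compound mutants (limma), where 2.71% of all genes did, and 4 had an unadjusted p under 0.05 (25.0%, against 17.8% of all genes). Between the mutants 0 passed, where 0.145% of all genes did, and 0 had an unadjusted p under 0.05, against 6.65% of all genes. In a list of 16 genes, counts of 0 beside such shares do not set the list apart. Those of smallest p in the compound mutants were Ezh2 (0.42, adjusted p = 0.108), the demethylase Tet1 (0.30, adjusted p = 0.159) and the imprint-binding zinc finger gene Zfp445 (0.31, adjusted p = 0.187).

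Of 14 genes of the insulin-like growth factor pathway, in which Igf2, Igf2r and Grb10 act, 13 were tested and 3 fell in p27-/- compared with WT (23.1%), where 4.62% of all genes were lower and 7.78% passed in either direction. Igfbp5 fell by 0.75 (adjusted p = 0.00756), Igfbp3 fell by 0.78 (adjusted p = 0.0187) and Igf2bp2 fell by 0.66 (adjusted p = 0.0229), the first pair being binding proteins of the secreted factors and the last a protein that binds Igf2 messenger RNA. In the compound mutants 1 of the 13 passed (7.7%, against 2.71% of all genes), as Igfbp3 fell by 0.72 from WT (adjusted p = 0.0444), and Igfbp2 and Igfbp4 had differences of -0.38 (adjusted p = 0.202) and -0.58 (adjusted p = 0.236). The receptor gene Igf1r had differences of -0.09 in both comparisons with WT (adjusted p = 0.605 and 0.691).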

How the data were processed

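Total RNA of dissected IL was amplified, sequenced and deposited as 1 table. The authors aligned the reads with STAR 2.5.2a, counted them per gene with RSEM 1.3.30 on the Ensembl transcriptome of GRCm38 without strand, normalized them with DESeq2 1.18.1 and deposited log2 values. The transformation is not given in the sources used here, and the depth per sample is unknown from the table, so that the number of mice limits the precision. Symbols came from the Ensembl name table, and 356 IDs, Kcnq1ot1 among them, were named only from ID and symbol pairs in the gene lists of the study.

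Each sample was placed in a group by its labelled genotype. Genes whose mean reached 10 on the linear scale, or 3.32 in log2 units, numbered 17268. These were fitted together with limma 3.58.1 under R 4.3.3, with 1 coefficient per genotype and empirical Bayes moderation following the mean-variance trend. P-values were adjusted by the Benjamini-Hochberg method over all 17268, and the threshold was 0.05. The fit was tested on simulated data. Between samples, correlations over the tested genes were 0.981 to 0.995, and none was a copy of another. Every listed gene is given by its level. Full statistics are given for genes past the threshold and for the 3 with the smallest p in each comparison, and other lists are given by counts with their 3 genes of smallest p in each comparison with WT. Igf1r and the called genes of those lists beyond these 3 were named after their values were seen. The members and lists were chosen with earlier results of these data known, and the sequences and the letters searched in them were chosen after the values were seen.

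Alternatives left out the filter or raised it to 50, fitted only the 2 genotypes compared, dropped the trend, used array weights, centred samples on their median, applied quantile normalization, blocked on the replicate number, added Xist or a lobe marker mean as a covariate, or left out each sample in turn. Replicate numbers did not pair the samples: the deviations of same-numbered samples correlated at -0.238 to 0.182. Positions and promoter windows of 300 bases are those of RefSeq for GRCm38.p6, and 28 of the 35 symbols had a window. Tables were made with Python 3.11.15, numpy 2.4.6, pandas 2.3.3 and scipy 1.17.1, and figures with matplotlib 3.10.9.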

Additional observations from a re-analysis of the deposited data

Results flagged for a closer look

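Among 31 quantities examined in the 4 WT samples, 3 had a sample whose gap to its nearest neighbour exceeded Dixon's 95% critical value for 4 samples, as a share of the whole range, where 1.55 would be flagged by chance at 1 in 20. All 3 concerned WT replicate 2. Asb4 was at 8.12 in that sample and at 6.04 to 6.24 in the other WT samples, a gap of 0.908 of the range. Zdbf2 was at 11.84 against 11.49 to 11.51, a gap of 0.927. The posterior lobe marker mean was at -0.65 against 0.65 to 0.91, a gap of 0.834. The anterior lobe marker mean of this sample, at 1.66 against -0.17 to 0.25, had a gap of 0.767 and was under the limit. Without WT replicate 2, 7 imprinted genes in place of 8 passed in p27-/- against WT. The set also changed: Ndn and Inpp5f lost their calls (limma, adjusted p = 0.0545 and 0.0518), and a gene outside the 8 passed. The part of adjoining tissue in the values of Asb4 and Zdbf2 was not tested.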

How the results depend on the processing

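The number of imprinted genes past the threshold in p27-/- compared with WT, 8 of 28, fell to 3 with no filter, 5 with only the 2 genotypes compared, 5 with no trend, 4 with quantile normalization, 5 with the anterior lobe marker covariate and 1 with the posterior lobe marker covariate. It was 11 with array weights, the highest count of the 21 alternatives, 9 with a mean of at least 50, 8 with median centring and 7 with the Xist covariate. With the replicate block it was 2, and 0 in each other comparison, and the replicate numbers did not pair the samples. It ranged from 1, without p27-/- replicate 2, to 10, without WT replicate 1, when a sample was left out. It was 2 without p27-/- replicate 3 or WT replicate 4, 3 without WT replicate 3, 4 without p27-/- replicate 1 and 5 without p27-/-;Sox2+/- replicate 2. In p27-/-;Sox2+/- compared with WT, the 0 became 4 with array weights (Dlk1, Airn, Rtl1 and Kcnq1ot1) and 1 with the anterior lobe marker covariate, and ranged from 0 to 1 when a sample was left out, with 1 without WT replicate 1 (Kcnq1ot1), WT replicate 2 (Rtl1) or p27-/- replicate 2 (Airn). Between the mutants, the 0 became 1 with array weights and remained 0 whichever sample was left out. The cause of these changes was not tested. Of 294 single-gene results under an alternative, 218 kept their direction and side of the threshold, 68 lost the call, 8 gained it and 0 changed sign. The 294 cover 14 gene results. Only the 8 genes called in p27-/- compared with WT had a call to lose, so all 68 losses fell among these. DESeq2, edgeR and another pseudocount were not run, since the table holds log2 values.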

Other observations

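Cdkn1c, a maternally expressed relative of the gene of P27 in the Kcnq1 cluster, was kept apart from the members. It had log2 values of 6.47, 6.56, 6.24 and 6.19 in WT, 6.76, 6.08 and 6.14 in p27-/-, and 6.55, 6.50 and 7.27 in p27-/-;Sox2+/- samples. The genotypes overlapped, and its differences of -0.04 in p27-/- and 0.41 in p27-/-;Sox2+/- compared with WT did not pass the threshold (limma, adjusted p = 0.934 and 0.308). Pon2 was at 8.11, 8.21, 8.61 and 8.57 in WT, 7.44, 7.21 and 7.32 in p27-/-, and 7.13, 7.16 and 7.13 in p27-/-;Sox2+/- samples. Every mutant sample was below every WT sample, and the fall passed the threshold in both comparisons with WT under all 21 alternatives.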
